A study of Kluyveromyces lactis with 12 samples.

Results

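In Kluyveromyces lactis, a budding yeast related to Saccharomyces cerevisiae, 113 of 5081 genes on the array had at least 2-fold more signal in wild-type cells after each of 2 oxidative stresses, sodium arsenite and tert-butyl hydroperoxide (t-BOOH), than in untreated cells. Genes were chosen on the wild-type channel alone. For each gene the log2 processed signal was averaged over its spots, the median over all genes of that array was subtracted, and the 4 arrays of a condition were averaged. A gene was taken when both the arsenite minus untreated and the t-BOOH minus untreated difference were at least 1 on the log2 scale. Of all genes, 254 reached 1 under arsenite, 725 under t-BOOH and 125, or 2.46%, under both. From these, 8 were left out because they lay among the 3 outermost genes of a chromosome end and 4 by name, ARR2, JLP1, CCP1 and YCF1. Of the 113 members, 67 carry a gene symbol and the other 46 are given by their identifier.

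The study set 2 strains against each other, the wild type Klwt and the deletion strain Klyap8Δ, which lacks the arsenic-responsive transcription factor KlYap8. Cells growing exponentially in rich medium (YPD) were left untreated, or were given arsenite or 0.25 mM t-BOOH for 30 min. For arsenite the treatment labels give 25 mM and the treatment protocol 0.1 mM, so the dose is not settled. Each condition had 4 biological experiments, and each of the 12 arrays carried both strains from the same condition, with the dyes exchanged on 2 of the 4. The arrays measured RNA from whole cultures, so more RNA per cell and more cells holding that RNA cannot be told apart.

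Arsenite is a metalloid that binds the thiol groups of proteins and glutathione, and in S. cerevisiae it also unfolds proteins and damages iron-sulfur clusters. The organic peroxide t-BOOH oxidises thiols and lipids and is removed by thiol peroxidases and glutathione peroxidases. Yeasts answer such agents with transcription factors of the Yap family, which are themselves thiol sensors and bind upstream of genes for antioxidant enzymes, exporters and protein turnover. Gene roles below are those of the S. cerevisiae counterparts unless said otherwise. No genome sequence was used here, so no promoter or protein sequence of these genes is shown.

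Because the wild-type channel chose the genes, its responses are given as a description. Over the 113 members the median wild-type difference was 1.36 under arsenite, with a range of 1.01 to 5.85, and 1.83 under t-BOOH, with a range of 1.01 to 6.64. The t-BOOH value was the higher one in 81 members. At least 2 on the log2 scale was reached by 24 members under arsenite and by 49 under t-BOOH. Just inside the threshold lay ARL1, a Golgi GTPase, at 1.07 under arsenite and 1.01 under t-BOOH. KLLA0C16918g lay at 1.01 and 1.12, and AVT4, a vacuolar amino acid exporter, at 1.01 and 1.43. Just outside, through their arsenite value, lay CYR1, the adenylate cyclase, at 0.992, OAR1, a mitochondrial reductase of fatty acid synthesis, at 0.996, and SOD1, the copper-zinc superoxide dismutase, at 0.998. Both stress differences were taken against the same 4 untreated arrays.

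**Figure D1:**
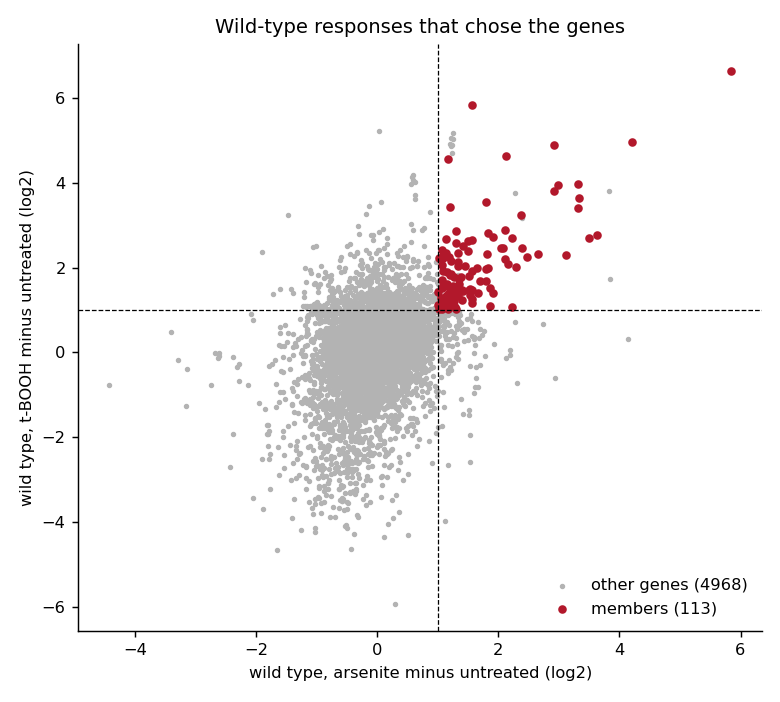
Wild-type log2 difference from untreated cells under arsenite (horizontal) and under t-BOOH (vertical) for every gene on the array, each point the difference of means over 4 arrays. The 113 members are red, the dashed lines mark the threshold of 1 that chose them, and grey points beyond both lines are the 12 genes left out by position or name.

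Median spot intensity on the 12 arrays ran from 719 to 3048.75 in Cy3 and from 2373.75 to 7526 in Cy5, no spot was saturated, and all members but KLLA0E15181g were well above background on every untreated array in either strain. The deleted gene, which the annotation calls ARR1, gave less signal in Klyap8Δ on each of the 12 arrays, with mean log2 ratios of -1.15 (untreated), -2.12 (arsenite) and -1.74 (t-BOOH). Untreated replicate 4 stood apart, with a mean correlation over genes of 0.938 with the other untreated arrays in either strain, against at least 0.970 for the others. Among the t-BOOH arrays replicate 1 stood apart likewise, at 0.946 in the deletion strain and 0.942 in the wild type, against at least 0.972 and 0.962 for the others. In the deletion strain untreated replicate 4 was the lowest untreated array for 69 of the 113 members, or 61.1%, against 32.3% of all genes. In the wild type it was lowest for 62, or 54.9%, against 32.9%. The t-BOOH arrays were all on slide 2 and the others on slide 1, so slide and treatment cannot be told apart for t-BOOH.

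The deletion strain gave a measure that did not enter the choice, although it shared each array, each spot and the scanner's dye normalization with the wild-type channel. In an alternative fit of all 24 channels, after normexp, loess and Aquantile normalization, the estimated correlation between the channels of a spot was 0.631. The fit behind the calls below holds the deletion-strain channels alone and has no such term. The median over the 113 members of the deletion-strain signal was -0.13, -0.05, -0.13 and -0.45 on untreated replicates 1 to 4. It was 1.11, 1.38, 1.22 and 1.30 on the arsenite arrays and 2.19, 1.78, 1.87 and 1.80 on the t-BOOH arrays. All stressed arrays therefore stood above all untreated arrays, with untreated replicate 4 the lowest and t-BOOH replicate 1 the highest.

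Tested with limma over 5056 genes, 82 of the 113 members rose under arsenite in the deletion strain at a Benjamini-Hochberg adjusted p under 0.05, where 5.28% of all genes did. Under t-BOOH 108 rose, where 28.9% of all genes did. None was called lower under either stress, where 3.62% of all genes were under arsenite and 21% under t-BOOH. The median difference was 1.04 under arsenite, with a range of 0.10 to 6.43, against -0.06 over all genes tested, and 1.83 under t-BOOH, with a range of 0.26 to 7.44, against 0.15. Rising under both stresses was found for 82 members, where 4.35% of all genes did, and the same untreated arrays enter both tests. Under t-BOOH alone 26 were called, under arsenite alone 0, and under neither 5. Of all 5056 genes, 1463 were called higher under t-BOOH, 267 under arsenite and 220 under both. The split of the members is therefore a description, and nothing is read from it.

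On the size rule of the choice itself, 61 members reached 1 in the deletion strain under arsenite, where 2.35% of all genes did, and 102 under t-BOOH, where 11.9% did. All 4 arsenite arrays lay above all 4 untreated arrays for 98 members, where 12.4% of all genes did so. For t-BOOH the number was 103, where 22.5% did so. The arsenite count depended on single arrays. It was 54 without arsenite replicate 2, 56 without untreated replicate 2 or without arsenite replicate 1, and 99 without t-BOOH replicate 1, while the t-BOOH count stayed between 107 and 111. With each array left out in turn, 53 of the 82 arsenite calls and 107 of the 108 t-BOOH calls were kept throughout.

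**Figure D2:**
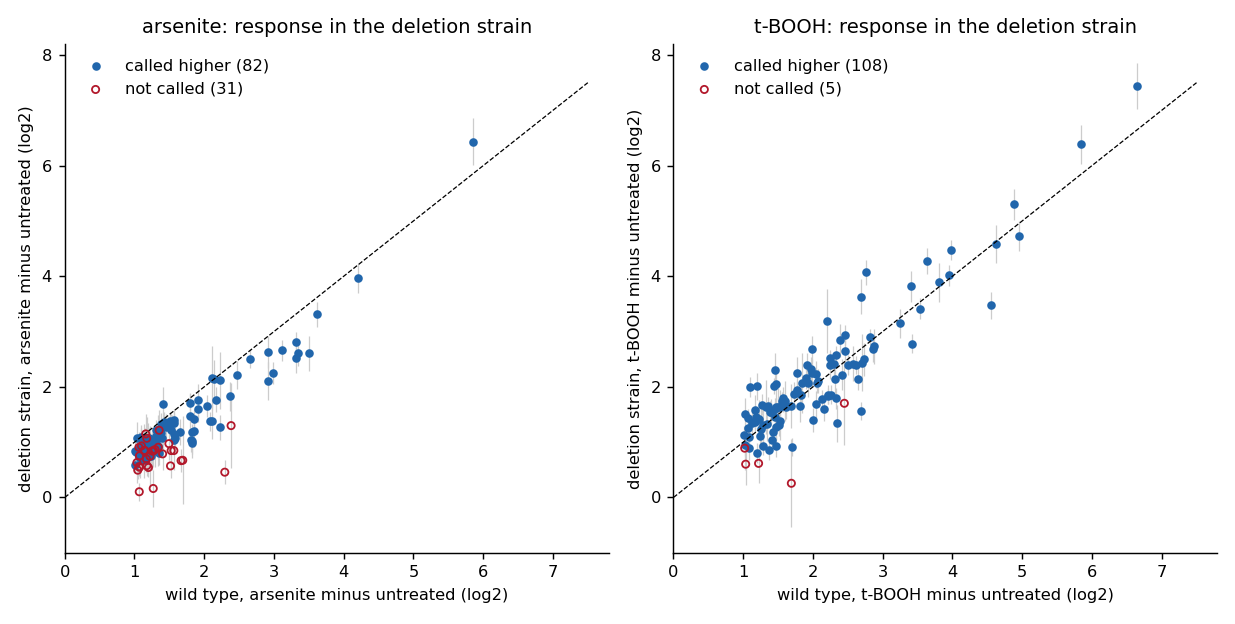
Log2 difference from untreated cells in the deletion strain (vertical, bars SE of the limma fit) against that in the wild type (horizontal) for the 113 members, under arsenite at left and t-BOOH at right. The dashed line marks equal values, and filled points are the 82 and 108 members called higher. Under arsenite 108 of 113 members lie below the line, against 48 of 113 under t-BOOH. The horizontal values chose the members, so nothing is read from these counts.

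Enzymes that remove peroxides and keep thiols reduced gave 5 members, SRX1, GPX2, ECM4, CCS1 and CTA1. SRX1 encodes sulfiredoxin, which restores peroxiredoxins that peroxide has inactivated. In the deletion strain its signal was 1.60, 1.89, 1.61 and 0.92 on untreated replicates 1 to 4, 3.37, 4.18, 3.62 and 3.85 on the arsenite arrays, and 5.89, 5.57, 5.70 and 4.93 on the t-BOOH arrays. The 3 conditions did not overlap, with t-BOOH highest. SRX1 rose 4.76-fold under arsenite (log2 2.25 ± 0.19 SE, adjusted p = 3.48e-05) and 16.2-fold under t-BOOH (4.01 ± 0.19, adjusted p = 3.05e-08). In the wild type its differences were 2.98 and 3.95.

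GPX2, a glutathione peroxidase, had deletion-strain signals of 3.00, 3.24, 2.79 and 2.81 untreated, 4.0, 4.41, 4.52 and 4.35 on the arsenite arrays and 5.62, 5.45, 5.50 and 4.86 on the t-BOOH arrays. The same order held without overlap, and GPX2 rose 2.57-fold under arsenite (adjusted p = 0.00112) and 5.27-fold under t-BOOH (adjusted p = 1.01e-06). ECM4, a glutathione transferase of the omega class, gave 2.26, 2.28, 2.19 and 1.22 untreated, 3.00, 3.16, 2.65 and 3.22 on the arsenite arrays and 4.65, 4.28, 4.07 and 3.50 on the t-BOOH arrays. Untreated replicate 4 lay far below the other untreated arrays. ECM4 rose 2.03-fold under arsenite (adjusted p = 0.0242) and 4.40-fold under t-BOOH (adjusted p = 1.95e-05), and its arsenite call was lost when any 1 of the arsenite arrays or untreated replicate 2 or 3 was left out. CCS1, the copper chaperone of superoxide dismutase, rose by 0.83 ± 0.16 and 1.74 ± 0.16 on the log2 scale. CTA1, the peroxisomal catalase, rose 2.36-fold under t-BOOH (adjusted p = 0.0121). Under arsenite its difference of 1.15 ± 0.35 did not pass (adjusted p = 0.0659).

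Of the 32 measured genes of the thiol redox and peroxide list, 11 were higher under arsenite in the deletion strain, and 24 were higher and 2 lower under t-BOOH. Among the 27 that are no members, 7 were higher under arsenite, and 19 were higher and 2 lower under t-BOOH. The median of these 27 genes was 0.31 under arsenite and 0.83 under t-BOOH, beside -0.06 and 0.15 over all genes tested.

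Carbonyl and quinone reductases, which act on the aldehydes and quinones that oxidation leaves, gave 3 members of 13 measured genes. ZTA1, a zeta-crystallin-like quinone reductase, had deletion-strain signals of 0.89, 0.70, 0.87 and 1.08 untreated, 1.96, 2.70, 2.19 and 2.19 on the arsenite arrays, and 3.89, 3.67, 4.14 and 3.60 on the t-BOOH arrays. Its conditions did not overlap, and it rose 2.59-fold under arsenite (adjusted p = 0.000766) and 7.68-fold under t-BOOH (adjusted p = 1.57e-07). SFA1, an alcohol dehydrogenase that also oxidises glutathione-bound formaldehyde, rose 4.66-fold under t-BOOH (adjusted p = 4.59e-05), and its arsenite difference was 0.91 ± 0.28 (adjusted p = 0.0662). YCP4, a flavodoxin-like protein, rose 1.61-fold and 2.57-fold, but leaving out any of 10 arrays ended its arsenite call. Of the 10 measured genes of this list that are no members, 0 were higher and 1 lower under arsenite, and 3 were higher and 1 lower under t-BOOH.

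Among the members on the heat shock and proteasome lists, CUZ1 had the largest arsenite response. Its product is a zinc finger protein that binds the Cdc48 segregase and the proteasome and is known from S. cerevisiae for arsenite tolerance. In the deletion strain CUZ1 gave -0.13, 0.14, 0.04 and 0.21 untreated, 2.97, 3.77, 3.24 and 3.53 on the arsenite arrays and 4.87, 4.05, 3.72 and 3.93 on the t-BOOH arrays. Both stresses lay far above the untreated arrays, and arsenite replicate 2 reached above t-BOOH replicate 3. It rose 9.92-fold under arsenite (3.31 ± 0.23, adjusted p = 5.9e-06) and 16.8-fold under t-BOOH (4.07 ± 0.23, adjusted p = 8.13e-08). In the wild type the order was the other way, with differences of 3.62 under arsenite and 2.76 under t-BOOH.

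TMC1, a related AN1-type zinc finger protein, gave 1.07, 1.12, 1.21 and 0.84 untreated, 1.87, 2.10, 1.93 and 1.98 on the arsenite arrays and 2.90, 2.71, 2.87 and 2.46 on the t-BOOH arrays. Its 3 conditions were apart, with rises of 1.88-fold (adjusted p = 0.00155) and 3.19-fold (adjusted p = 1.1e-06). DDI1, a ubiquitin-binding shuttle and protease, rose 2.17-fold and 4.06-fold (adjusted p = 0.000766 and 5.77e-07). Of the 71 measured proteasome and ubiquitin genes, 21 were higher and 0 lower under arsenite in the deletion strain, and 60 were higher and 2 lower under t-BOOH. CUZ1 and DDI1 were the only members on that list. Of the other 69 genes, 19 were higher and 0 lower under arsenite, and 58 higher and 2 lower under t-BOOH. Their medians were 0.57 and 0.97. CUZ1 and TMC1 were the only members among 18 measured genes of arsenic and metal detoxification. Of the other 16, 2 were higher and 1 lower under arsenite, and 5 higher and 1 lower under t-BOOH. The medians of these 16 were -0.31 and 0.33, beside -0.06 and 0.15 over all genes tested.

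AHA1, which activates the chaperone Hsp90, had deletion-strain signals of -0.51, -0.33, -0.83 and 0.21 untreated, 1.05, 1.5, 1.68 and 1.08 on the arsenite arrays, and 2.57, 1.30, 2.26 and 1.65 on the t-BOOH arrays. The stressed arrays of both kinds lay above all untreated arrays and overlapped each other. AHA1 rose 3.24-fold under arsenite (adjusted p = 0.0054) and 4.96-fold under t-BOOH (adjusted p = 5.37e-05). OPI10, a relative of the human protein Hikeshi that carries Hsp70 into the nucleus, rose 2.28-fold and 6.40-fold (adjusted p = 0.0108 and 2.72e-06). HSP42, a small heat shock protein that gathers misfolded proteins, rose 4.03-fold under t-BOOH (adjusted p = 3.33e-05), and its arsenite difference was 0.85 ± 0.24 (adjusted p = 0.051). Of the 44 measured heat shock and chaperone genes, 13 were higher and 0 lower under arsenite, and 23 were higher and 4 lower under t-BOOH. Among the 41 that are no members, 11 were higher and 0 lower under arsenite, and 20 higher and 4 lower under t-BOOH. Over all genes tested, 5.28% and 28.9% were called higher.

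The list of iron uptake and iron-sulfur clusters gave 7 members of 35 measured genes, all of them genes of cluster assembly. NAR1, NBP35, CFD1 and DRE2 belong to the cytosolic assembly machinery, and YAH1, ISA2 and IBA57 to the mitochondrial one. For NAR1 the deletion-strain signal was 0.91, 0.91, 1.05 and -0.06 untreated, 2.24, 2.79, 2.31 and 2.55 on the arsenite arrays and 3.39, 2.68, 2.64 and 2.51 on the t-BOOH arrays. Arsenite and t-BOOH arrays overlapped, and both lay above all untreated arrays, of which replicate 4 was far the lowest. NAR1 rose 3.41-fold under arsenite (1.77 ± 0.22, adjusted p = 0.000551) and 4.29-fold under t-BOOH (2.10 ± 0.22, adjusted p = 1.02e-05).

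YAH1, the ferredoxin that feeds electrons into cluster synthesis, gave 0.45, 0.35, 0.62 and 0.11 untreated, 1.60, 1.95, 1.59 and 1.73 on the arsenite arrays and 2.52, 1.70, 2.24 and 1.72 on the t-BOOH arrays. Here too the stresses overlapped each other and not the untreated arrays, and YAH1 rose 2.53-fold and 3.16-fold (adjusted p = 0.000459 and 5.66e-06). NBP35 and CFD1, which form the scaffold on which cytosolic clusters are built, rose 2.12-fold and 2.32-fold under arsenite (adjusted p = 0.00287 and 0.00251) and 2.75-fold and 1.92-fold under t-BOOH (adjusted p = 2.6e-05 and 0.0014). DRE2, the electron carrier of that machinery, gave 1.03, 1.11, 1.06 and 0.15 untreated, 1.94, 1.98, 1.86 and 1.74 on the arsenite arrays and 2.83, 2.44, 2.22 and 2.41 on the t-BOOH arrays. The conditions did not overlap, and it rose 2.06-fold and 3.11-fold (adjusted p = 0.0129 and 5.84e-05). ISA2 rose by 0.88 ± 0.16 and 1.44 ± 0.16 on the log2 scale. For IBA57 the differences of 1.07 ± 0.39 and 0.89 ± 0.39 passed under neither stress (adjusted p = 0.114 and 0.076).

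Iron genes that are no members did not all go the same way in the deletion strain. Of the 28 measured, 4 were higher and 3 lower under arsenite, and 12 were higher and 4 lower under t-BOOH. The 4 higher under arsenite, JAC1, NFS1, NFU1 and CIA2, are assembly genes too, with differences of 0.66, 0.75, 0.70 and 0.60. The ferric reductase gene FRE1 fell by 2.43 under arsenite (adjusted p = 0.000559), with a t-BOOH difference of -0.12 (adjusted p = 0.766). The iron transporter gene FET4 fell by 1.55 and by 1.57 (adjusted p = 0.000249 and 1.11e-05). CTH1, which in S. cerevisiae takes part in degrading mRNAs when iron is short, fell by 0.95 under arsenite (adjusted p = 0.0388). The median of these 28 genes was 0.24 under arsenite and 0.26 under t-BOOH, beside -0.06 and 0.15 over all genes tested. With the 7 members included it was 0.38 and 0.70.

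**Figure D3:**
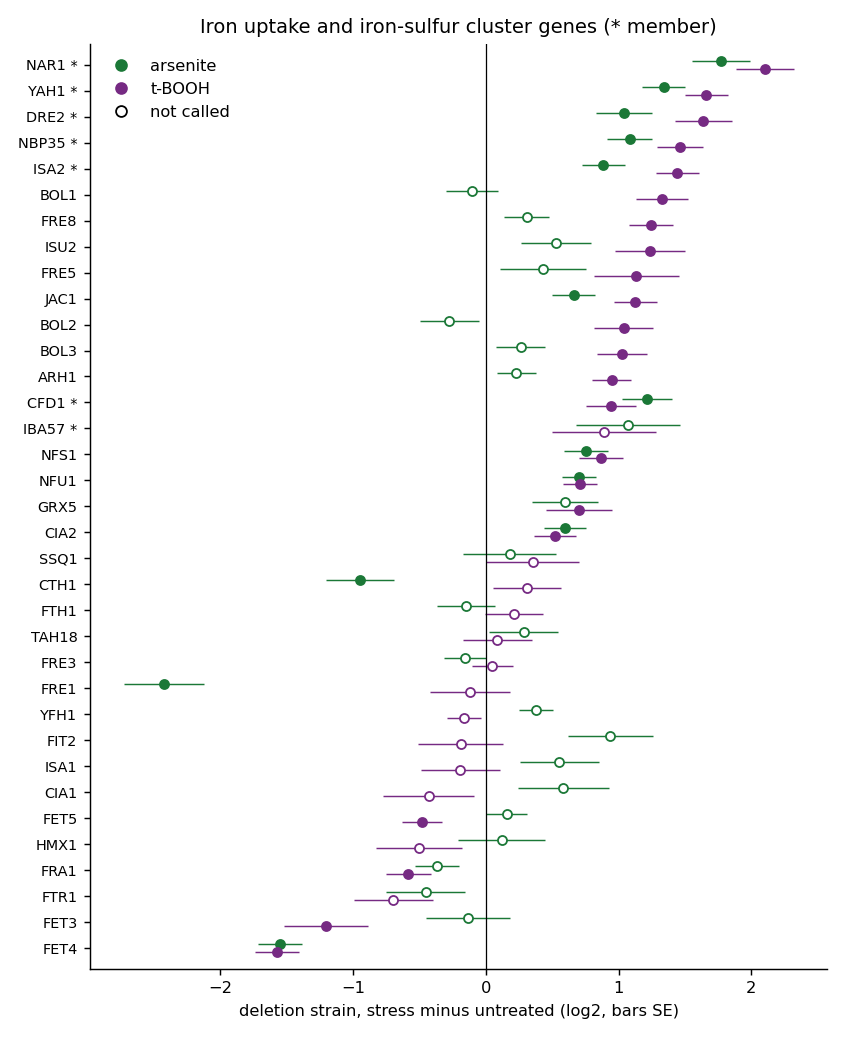
Deletion-strain log2 difference from untreated cells under arsenite (green) and t-BOOH (purple) for the 35 measured genes of iron uptake and iron-sulfur cluster assembly, bars SE of the fit, with members starred and filled points called. Of the 7 members 6 were called higher under both stresses, while FRE1 and FET4 lie far to the left under arsenite.

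DNA repair gave 4 members, of which DDI1 is described above. RAD5, which acts in error-free bypass of damaged DNA, gave -0.34, -0.05, -0.11 and -0.35 untreated, 0.97, 0.95, 1.06 and 0.81 on the arsenite arrays and 2.18, 1.61, 1.59 and 1.54 on the t-BOOH arrays. Its conditions were apart, with rises of 2.23-fold and 3.84-fold (adjusted p = 0.00138 and 1.94e-06). RAD57 and RAD54, of homologous recombination, rose 2.11-fold and 2.10-fold under arsenite (adjusted p = 0.0154 and 0.0384) and 2.16-fold and 2.86-fold under t-BOOH (adjusted p = 0.00169 and 0.000962). The RAD54 arsenite call was lost when any of 10 arrays was left out and that of RAD57 without untreated replicate 2 or arsenite replicate 2. Of the 38 measured repair genes, 9 were higher and 0 lower under arsenite in the deletion strain, and 16 were higher and 4 lower under t-BOOH. Among the 34 that are no members, 5 were higher and 0 lower under arsenite, and 12 higher and 4 lower under t-BOOH. Over all genes tested, 5.28% and 28.9% were called higher.

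Members of sulfur, flavin and membrane metabolism were fewer. HOM3, the aspartokinase at the head of methionine and threonine synthesis, was the only member among 36 measured sulfur genes and rose 2.42-fold and 4.69-fold (adjusted p = 0.00876 and 1.43e-05). The other 35 sulfur genes had 8 higher and 0 lower under arsenite and 11 higher and 12 lower under t-BOOH. The riboflavin synthesis genes RIB1 and RIB3, singled out after their values were seen, rose by 1.60 ± 0.24 and 0.73 ± 0.18 under arsenite and by 1.55 ± 0.24 and 1.86 ± 0.18 under t-BOOH. The RIB3 arsenite call was lost without untreated replicate 2 or 3 or arsenite replicate 2, 3 or 4.

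RSB1, an exporter of sphingoid bases, had deletion-strain signals of 1.08, 0.92, 1.12 and 1.11 untreated, 1.95, 2.11, 1.83 and 1.88 on the arsenite arrays and 2.63, 2.24, 2.96 and 2.64 on the t-BOOH arrays. These did not overlap, and RSB1 rose 1.85-fold and 2.95-fold (adjusted p = 0.0063 and 8.76e-06). ICT1, a lysophosphatidic acid acyltransferase, rose 3.16-fold and 6.30-fold (adjusted p = 0.000441 and 6.77e-07). RSB1 and ICT1 were the only members among 14 measured genes of the multidrug efflux list. Of the other 12, 3 were higher and 1 lower under arsenite, and 5 higher and 1 lower under t-BOOH. GPT2, the next gene to RSB1 and the first acyltransferase of phospholipid synthesis, rose 2.40-fold and 1.86-fold (adjusted p = 0.00572 and 0.00574). Its estimate was larger under arsenite, whereas that of t-BOOH was the larger one in 102 of the 113 members. LPL1, a phospholipase of lipid droplets, rose 1.83-fold and 4.20-fold (adjusted p = 0.0113 and 2.03e-06).

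In autophagy and vacuole function, ATG1, the kinase that starts autophagy, gave 0.75, 0.51, 0.79 and -0.81 untreated, 1.65, 1.5, 1.41 and 1.49 on the arsenite arrays and 2.21, 1.20, 1.69 and 1.43 on the t-BOOH arrays. The stressed arrays were all above the untreated ones, of which replicate 4 was far the lowest. ATG1 rose 2.30-fold and 2.50-fold (adjusted p = 0.0275 and 0.00299). AVT4 rose 1.5-fold and 2.27-fold (adjusted p = 0.0215 and 2.12e-05). The arsenite calls of ATG1 and AVT4 were each lost without untreated replicate 2, arsenite replicate 1, 2 or 4 and, for ATG1, arsenite replicate 3. ATG1 and AVT4 were the only members among 35 measured genes of this list. Of the other 33, 4 were higher and 2 lower under arsenite, and 17 higher and 4 lower under t-BOOH. No member came from the 11 stress carbohydrate, 35 general stress, 42 mitochondrial respiration, 100 ribosome biogenesis or 57 cytosolic ribosomal protein genes measured. Members were 113 of 5081 genes, so an empty short list is not read as a result. In the deletion strain under t-BOOH, 14 general stress genes were called higher and 4 lower. Respiration had 17 higher and 3 lower, stress carbohydrates 1 and 4, ribosome biogenesis 0 and 98, and ribosomal proteins 1 and 1.

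Some members are known for processes other than stress defence. SPO22, a meiosis gene, had deletion-strain signals of -5.18, -5.83, -4.94 and -5.64 untreated, -1.17, -1.12, -2.21 and -1.24 on the arsenite arrays and -0.96, -0.50, -0.54 and -0.66 on the t-BOOH arrays. All stressed arrays were far above the untreated ones, and arsenite replicate 3 was the lowest of its condition. SPO22 rose 15.6-fold under arsenite (3.96 ± 0.27, adjusted p = 5.9e-06) and 26.6-fold under t-BOOH (4.73 ± 0.27, adjusted p = 8.3e-08).

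STE6 and STE3 act in mating, as the exporter of a-factor and its receptor. STE6 gave -1.92, -2.49, -2.13 and -2.53 untreated in the wild type, 0.35, 0.53, 0.10 and -0.87 on the arsenite arrays and -0.21, -0.38, -0.20 and -0.24 on the t-BOOH arrays. In the deletion strain it gave -2.44, -1.96, -2.56 and -1.57 untreated, -1.84, -1.51, -1.90 and -1.44 on the arsenite arrays and -0.77, -0.89, -0.47 and -0.81 on the t-BOOH arrays. The deletion-strain arsenite arrays overlapped the untreated ones, and its t-BOOH arrays did not. STE6 rose 2.63-fold under t-BOOH there (adjusted p = 0.000257), and its arsenite difference was 0.46 ± 0.22 (adjusted p = 0.232). STE3 rose 11.1-fold under t-BOOH (3.47 ± 0.25, adjusted p = 4.98e-07), with an arsenite difference of 0.70 ± 0.25 (adjusted p = 0.102). BOR1, a boron exporter, had the same split, at 2.78 ± 0.16 under t-BOOH (adjusted p = 1.2e-07) and 0.54 ± 0.16 under arsenite (adjusted p = 0.0614).

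The highest values of all belonged to KLLA0C18931g, which has no symbol in the annotation used. In the deletion strain it gave -2.94, -3.26, -3.33 and -5.45 untreated, 2.61, 2.78, 2.72 and 2.65 on the arsenite arrays and 3.38, 3.81, 3.91 and 3.68 on the t-BOOH arrays. Untreated replicate 4 was far below the others, and the conditions did not overlap. KLLA0C18931g rose 86.5-fold under arsenite (6.43 ± 0.42, adjusted p = 5.28e-06) and 174-fold under t-BOOH (7.44 ± 0.42, adjusted p = 8.3e-08). Its neighbour KLLA0C18909g, also a member, rose 2.54-fold and 1.90-fold (adjusted p = 0.00147 and 0.00176).

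Other leading members without a symbol rose under both stresses in the deletion strain as well. KLLA0F24948g rose 7.0-fold and 22.1-fold (adjusted p = 5.28e-06 and 8.42e-09), from signals of -1.36 to -0.87 untreated to 1.40 to 2.05 under arsenite and 3.02 to 3.44 under t-BOOH. KLLA0C14993g rose 6.09-fold and 19.3-fold, KLLA0C01562g 5.77-fold and 14.1-fold, KLLA0B09658g 4.31-fold and 14.8-fold, and KLLA0E03763g 6.08-fold and 12.4-fold. KLLA0C00198g, the sixth gene from its chromosome end, rose 6.20-fold and 39.4-fold, and KLLA0E19889g 3.55-fold and 8.90-fold. Their adjusted p under arsenite ran from 5.01e-05 for KLLA0C14993g to 0.00359 for KLLA0B09658g.

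**Figure D4:**
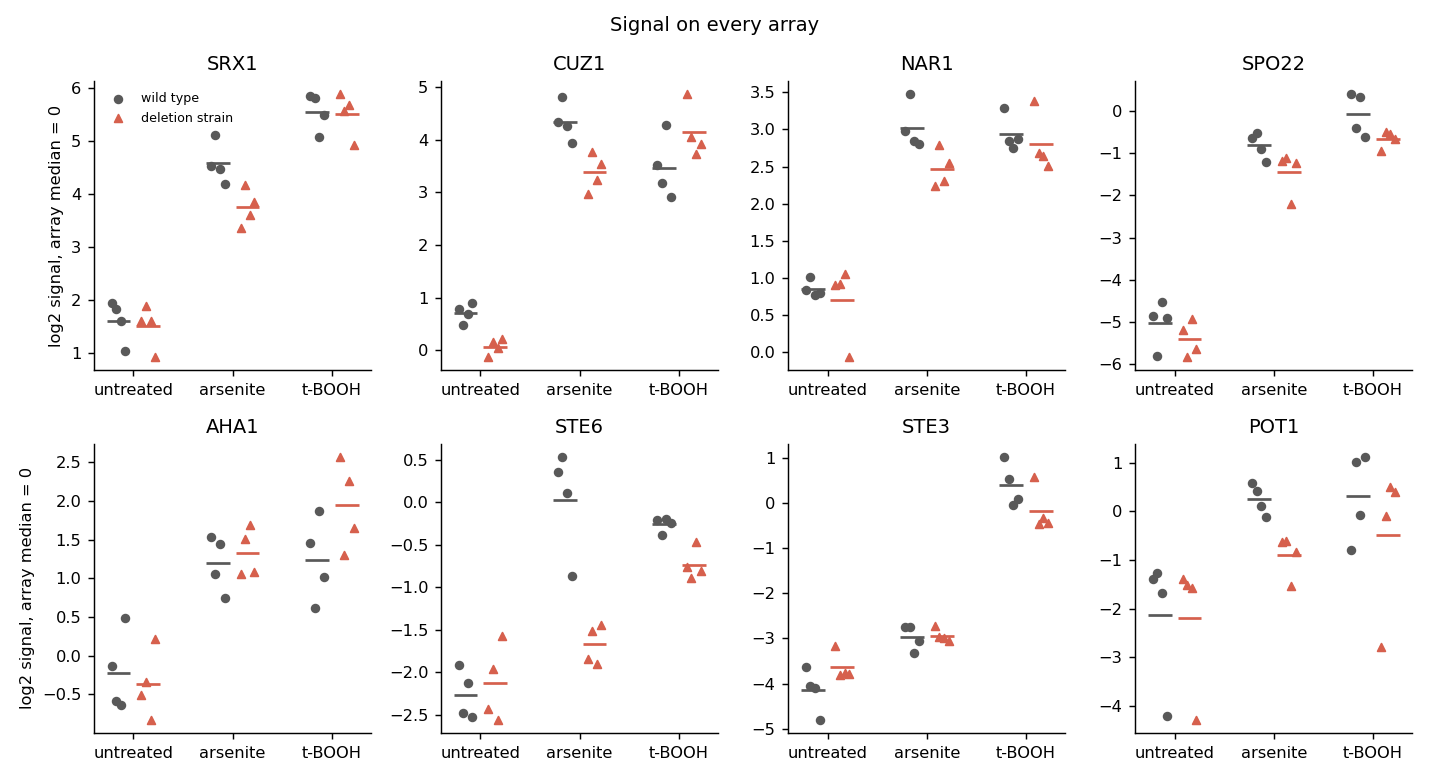
Log2 signal over the array median on each of the 12 arrays for SRX1, CUZ1, NAR1, SPO22, AHA1, STE6, STE3 and POT1, wild type as grey circles and deletion strain as red triangles, with bars at the mean of 4 arrays. Vertical axes differ between genes; STE6 under arsenite is between -0.87 and 0.53 in the wild type and between -1.90 and -1.44 in the deletion strain, and POT1 has a single untreated array near -4 in both strains.

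For 5 members the deletion strain passed under neither stress, namely POT1, SIP4, IDP1, SUE1 and IBA57. POT1 encodes the peroxisomal thiolase of fatty acid oxidation. Its wild-type signal was -1.39, -1.27, -1.68 and -4.21 untreated, 0.58, 0.42, 0.11 and -0.12 on the arsenite arrays and -0.79, 1.0, -0.08 and 1.12 on the t-BOOH arrays. In the deletion strain it was -1.40, -1.52, -1.59 and -4.29 untreated, -0.63, -0.61, -1.53 and -0.83 on the arsenite arrays and -2.79, -0.09, 0.50 and 0.40 on the t-BOOH arrays. Untreated replicate 4 was far below the others in both strains, and t-BOOH replicate 1 was far the lowest t-BOOH array in the deletion strain. Its deletion-strain differences were 1.30 ± 0.76 and 1.70 ± 0.76 (adjusted p = 0.33 and 0.0818).

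SIP4, an activator of gluconeogenesis genes, had untreated signals of -3.98, -3.14, -3.48 and -6.40 in the wild type and -2.06, -3.33, -2.19 and -6.61 in the deletion strain. Replicate 4 again stood far below the rest. Without that array its deletion-strain differences were -0.37 under arsenite and -0.79 under t-BOOH, against 0.67 ± 0.80 and 0.26 ± 0.80 with it. IDP1, the mitochondrial NADP-dependent isocitrate dehydrogenase, and SUE1, a mitochondrial protein that acts in the degradation of unstable cytochrome c, had differences of 0.60 to 0.75 in the deletion strain. IDP1 was the only member among 11 measured genes of the pentose phosphate and NADPH list. Of the other 10, 0 were higher and 0 lower under arsenite, and 2 higher and 3 lower under t-BOOH.

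Choosing the genes without untreated replicate 4 gave 105, of which 91 were among the 113. The 22 that dropped out included the peroxisomal genes CTA1 and PEX5, the latter the import receptor, as well as IDP1, SUE1, SIP4, IBA57, ATG1, ATG32, STE3, BOR1, RAD54, GPT2 and LPL1. Tested without that array, 73 of the 91 rose under arsenite and 90 under t-BOOH, where 6.35% and 36.1% of all genes did. Of all 113, 81 and 108 then rose.

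Set against each other in the deletion strain, arsenite signals were lower than t-BOOH signals for 70 members, where 30.5% of all genes were called lower, and higher for 0, where 20.2% were called higher. The median difference was -0.77 over members and -0.17 over all genes tested. This contrast has slide and treatment together, and it depended on the scaling. The lower count was 51 with the 75th percentile as centre, which moved the median of all genes by 0.28, 46 with quantile normalization and 40 after loess and Aquantile normalization, and the higher count was 2 to 3 under these. Without t-BOOH replicate 1 the lower count was 79.

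KLLA0C18711g had the widest gap. Its deletion-strain signal was -5.52, -5.13, -5.55 and -6.17 untreated, -5.21, -4.13, -4.88 and -4.77 on the arsenite arrays and 0.11, 1.78, 0.51 and 0.76 on the t-BOOH arrays. Arsenite replicate 1 lay within the untreated range, and t-BOOH was far above both. KLLA0C18711g rose 83.5-fold under t-BOOH (6.38 ± 0.35, adjusted p = 8.12e-08), its arsenite difference was 0.85 ± 0.35 (adjusted p = 0.167), and arsenite and t-BOOH differed by -5.54 ± 0.35 (adjusted p = 5.1e-07). STE3 followed at -2.78 ± 0.25, KLLA0C00198g at -2.67 ± 0.29, KLLA0B10373g at -2.44 ± 0.34 and BOR1 at -2.24 ± 0.16 (adjusted p at most 0.000133). At the other end KLLA0C18909g was 0.42 ± 0.19 higher under arsenite, SIP4 0.42 ± 0.80, GPT2 0.37 ± 0.22, CFD1 0.27 ± 0.19 and KLLA0D01243g 0.24 ± 0.20, none of which passed (adjusted p at least 0.0874). NAR1 and YAH1 differed by -0.33 ± 0.22 and -0.32 ± 0.16 without passing, and turned positive under quantile normalization.

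**Figure D5:**
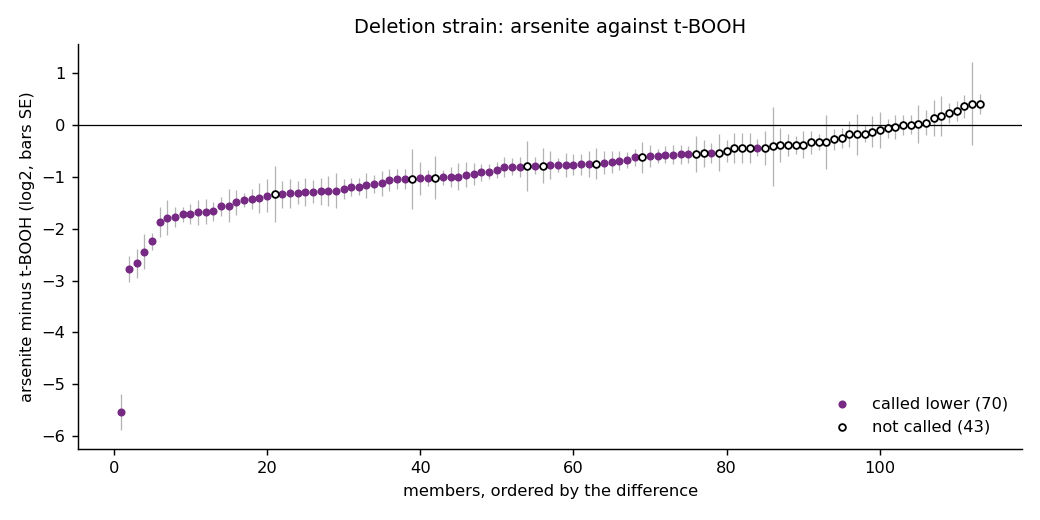
Arsenite minus t-BOOH difference in the deletion strain (log2, bars SE) for the 113 members in order of that difference, from -5.54 for KLLA0C18711g to 0.42. The 70 filled points were called lower under arsenite and the 43 open points were not called.

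The ratio of deletion strain over wild type on each array has the wild-type channel that chose the members in its denominator, so the counts are given beside the background only. Untreated, 1 member was called lower and 0 higher, where 0.75% and 0.0395% of 5069 genes were. Under arsenite 27 were called lower and 0 higher, where 2.45% and 0.651% were. Under t-BOOH 8 were lower and 8 higher, where 10.5% and 9.77% were. The median log2 ratio over members was -0.05, -0.44 and -0.00 in that order. The arsenite count was 2 without arsenite replicate 2, 4 without arsenite replicate 1 or 3 and 44 without t-BOOH replicate 3. The t-BOOH counts were 23 lower and 15 higher without t-BOOH replicate 3, and 4 lower and 1 higher without t-BOOH replicate 2.

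STE6 had the lowest ratio under arsenite, at -2.19, -2.05, -2.01 and -0.57 on the 4 arrays. SRX1 was at -1.17, -0.94, -0.87 and -0.34, ECM4 at -0.67, -1.09, -0.93 and -0.40, and ISA2 at -0.46, -0.64, -0.75 and -0.12. Replicate 4 was the nearest to 0 each time. Nothing is read from these signs, since 108 of the 113 members had a mean arsenite ratio below 0 and the wild-type arsenite signal chose the genes. AHA1 had the highest arsenite ratio of the members at 0.14. Under t-BOOH the ratios ran from -1.20 for GIP1, a phosphatase-binding protein of sporulation, to 0.86 for KLLA0E23343g. For CUZ1 the t-BOOH arrays disagreed in sign, at 1.35, 0.88, -0.56 and 1.01. Its mean ratios were -0.64 untreated, -0.96 under arsenite and 0.67 under t-BOOH, none of which passed (limma adjusted p = 0.41, 0.0591 and 0.0771).

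Along the chromosomes the members were spread thinly but often lay side by side. The 6 chromosomes held 10 to 29 members each, or 1.99% to 2.42% of their genes. Of the 113 members, 25, or 22.1%, were next to another member, while 4% of the genes that are no members were next to one. They formed 12 runs, of which 11 were pairs and 1 a run of 3. The pairs with symbols on both sides were ZTA1 and GIP1, SPG4 and YKU80, RSB1 and GPT2, and TMC1 and DRE2. NBP35 and MUK1 each lay next to a member without a symbol.

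Members of a pair did not always move by the same amount in the deletion strain. ZTA1 was at 2.94 ± 0.18 under t-BOOH and GIP1 at 1.34 ± 0.33, while TMC1 and DRE2 were at 1.68 ± 0.13 and 1.64 ± 0.21. In the run of 3, KLLA0B10373g rose 4.42-fold under arsenite and 23.9-fold under t-BOOH and KLLA0B10395g 2.63-fold and 4.44-fold. KLLA0B10406g, the third gene, rose 4.34-fold and 5.43-fold, with an SE of 0.52 on the log2 scale. Its t-BOOH arrays overlapped the untreated ones, and its arsenite call was lost when any of 6 arrays was left out. The 197 tested neighbours that are no members were called higher in 6.60% of cases under arsenite and 33.5% under t-BOOH, beside 3.61% and 27.1% of the remaining genes.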

How the data were processed

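Total RNA was linearly amplified and labelled with Cy3 or Cy5, per the labels' protocols, and scanned images were quantified in Feature Extraction (version 10.7.3.1), per the file headers. Processed signals are intensity values from which that software had subtracted background and in which it had evened out the dyes (linear and lowess), per the file headers; the log10 ratios deposited with them, red over green, were used to check this. The authors' deposited table holds log2 values; set against the ratios here, its direction is deletion over wild type, with correlations over genes of 0.951 to 0.987, slopes of 0.82 to 0.94 and column medians of -0.03 to 0.01, and its centring is unknown.

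Log2 processed signals were averaged over the spots of a gene (2 for 5076 of 5081 genes) and centred on each channel's median. The wild-type values and the choice of members used every spot. The deletion-strain signals, the fits and the ratios left out spots flagged as non-uniform or as population outliers. Printed values of the 2 strains can therefore differ in the spots used. The 12 deletion-strain channels were fitted with limma 3.58.1 in R 4.3.3, with condition and dye as terms, for genes well above background there on at least 4 arrays. Residual degrees of freedom were 8, prior 3.96. Ratios were fitted likewise over 5069 genes. SE is from the fit, and n is 4 arrays per condition; precision is limited by that number. Levels are not compared between genes. The deletion-strain fit was run on simulated data with independent noise for each gene and array. That simulation held no array that stood apart, and the ratio fits and the alternative fit of 24 channels were not simulated.

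Gene names were looked up in RefSeq (assembly ASM251v1), which matched 5069 genes, 3955 of them with a symbol. The members, gene lists and tests were chosen with earlier results of these data known. Named were the 12 members with the highest lower wild-type response, up to 4 per list, the extremes of each contrast and ratio, the genes at the threshold and those called under neither stress; CCS1, ISA2, PEX5, ATG32, YKU80, RIB1, RIB3 and the iron genes that are no members were named after their values were seen. Alternatives were normalization, centring, dye term, dim filter, replicate block, left-out arrays, threshold and the authors' table.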

Additional observations from a re-analysis of the deposited data

Results flagged for a closer look

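Among the 55 named members, 165 groups of 4 deletion-strain arrays were checked for a single array far from the other 3, and 14 were found, where chance gives about 1 in 20. Untreated replicate 4 was the array in 9 of them. It was low for KLLA0C00198g at -4.11, ATG1 at -0.81, KLLA0C18931g at -5.45, NAR1 at -0.063, POT1 at -4.29, ECM4 at 1.22 and DRE2 at 0.15. It was high for KLLA0E19889g at 2.67 and ARL1 at 0.62. Replicate 1 was high for STE3 at -3.17 untreated and 0.59 under t-BOOH and for RAD5 at 2.18 under t-BOOH. RSB1 was low at 0.92 on untreated replicate 2, and SPO22 at -2.21 on arsenite replicate 3.

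For 5 of the 55 named members the ratio of deletion strain over wild type was below 0 on every arsenite array and above 0 on every t-BOOH array. The mean ratios were -0.35 and 0.42 for DDI1, -0.14 and 0.27 for NBP35, -0.40 and 0.23 for ARL1, -0.29 and 0.36 for YCP4, and -0.20 and 0.20 for RAD5. The difference between the conditions was not tested. The wild-type signal that chose the members is in the denominator, and 108 of the 113 members had a mean arsenite ratio below 0. Nothing is therefore read from these signs, and the share of all genes with the same split was not counted.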

How the results depend on the processing

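Over the alternatives tried, members called higher in the deletion strain numbered 54 to 101 under arsenite and 99 to 111 under t-BOOH. The 99 is out of the 105 genes chosen anew without untreated replicate 4, and the other range ends are out of 113. With single arrays left out the ranges were 54 to 99 and 107 to 111. Arsenite against t-BOOH gave 64 to 79 lower and 0 to 0 higher with arrays left out, but 46 lower and 2 higher by quantile normalization, 40 and 2 by normexp, loess and Aquantile, 40 lower at 2-fold or more, 3 higher with 75th percentile centring, and 2 higher without untreated replicate 4 and t-BOOH replicates 1 and 3. With arrays left out, ratio counts were 0 to 2 lower untreated, 2 to 44 lower under arsenite, and 4 to 23 lower and 1 to 15 higher under t-BOOH, with 0 to 0 higher otherwise. The rule gave 105 to 132 genes with arrays left out, 197 at a threshold of 0.8 and 38 at 1.5. Replicate numbers did not pair the arrays (same-number correlations of -0.23 to 0.30, and 3 of 12 arrays matched their own number best). The replicate block gave 78, 109 and 70 calls for arsenite, t-BOOH and arsenite lower than t-BOOH, and 0 in place of 1 for the untreated ratio; normexp with loess also gave 0 there. The promoter motif alternative was not run, since no sequence was used. Choosing and testing members without untreated replicate 4 was added after seeing the data and gave 83 and 99 of those 105 genes. The causes were not tested.

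Among the 55 named members, signs turned for 11, in each case where the difference was not called; the other members were not followed gene by gene. Against untreated, SIP4 turned to -0.37 (arsenite) and -0.79 (t-BOOH) without untreated replicate 4. Without 3 arrays together, untreated replicate 4 and t-BOOH replicates 1 and 3, SIP4 turned to -0.35 and -0.59. With 75th percentile centring it turned to -0.026 (t-BOOH). Under t-BOOH, IDP1 turned to -0.13 with normexp, loess and Aquantile and SUE1 to -0.24 without the 3 arrays. The others were in arsenite against t-BOOH. With 75th percentile centring ATG1 was 0.16, CTA1 0.19 and RAD57 0.24. With quantile normalization YAH1 was 0.11, ATG1 0.23, IBA57 -0.19, CTA1 0.17, NAR1 0.24 and NBP35 0.070. With normexp, loess and Aquantile YAH1 was 0.17, KLLA0C16918g 0.060, ATG1 0.28, IBA57 -0.26, CTA1 0.16, NAR1 0.32 and NBP35 0.0037. Without the 3 arrays IDP1 was -0.29, ATG1 0.23 and CTA1 0.39. With single arrays left out, IDP1 ran from -0.40 to 0.23, ATG1 from -0.25 to 0.015, IBA57 from -0.25 to 0.56, CTA1 from -0.33 to 0.21, SUE1 from -0.033 to 0.45, RAD57 from -0.24 to 0.16 and SIP4 from -0.032 to 0.63. Against untreated, SIP4 then ran from -0.37 to 1.33 (arsenite) and from -0.79 to 0.92 (t-BOOH).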
